A study of Homo sapiens with 9 samples.

Results

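The sites described here are intronic MSI1 crosslink sites close to exons in U251 glioblastoma cells. A member is a nucleotide that stands, with the same chromosome, position and strand, in at least 2 of 3 deposited iCLIP site lists, lies inside a gene but outside every exon on that strand, and is at most 500 nt from the nearest exon edge of that gene. The rule found 1458 sites, among 42985 sites of any kind in at least 2 lists (3.39%) and 20637 intronic ones (7.06%). They lie beside 1153 exons of 1007 host genes, out of 206550 exons and 20848 genes in the deposited tables. Members were thus selected on their presence in 2 lists, chosen by measured iCLIP values, so their positions and their recurrence are given as descriptions without a test.

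The study used U251, an established glioblastoma cell line. The 9 samples are 3 iCLIP libraries of wild-type cells made with an anti-MSI1 monoclonal antibody (Abcam ab52865), 3 RNA-seq libraries of wild-type control cells and 3 RNA-seq libraries titled Msi1 KD, here called the knockdown. The means of the knockdown and the treatment of the control cells are not described in the labels, and no iCLIP of knockdown cells or of another antibody was analysed here. The protocol text speaks of biological replicates combined for sequencing, so p-values measure the spread between these libraries, which may be technical.

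MSI1 (Musashi-1) is an RNA-binding protein of neural and glioma stem cells that recognises short UAG-containing motifs through RNA recognition motifs and is best known for binding 3′ untranslated regions in the cytoplasm. The intron beside an exon holds the splice sites, the branch point, the polypyrimidine tract and many enhancers and silencers, so RNA-binding proteins at such places can alter whether an exon is used. In iCLIP, ultraviolet light links protein and RNA, and the truncated cDNA marks the linked nucleotide. Relating such sites to the share of each gene's exon counts that falls on the neighbouring exon is the comparison made below.

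Gene counts summed to between 32919299 and 47277016 per RNA-seq library. The glioma markers VIM (2579 ± 271 CPM, SD, n = 3) and CD44 (3772 ± 144 CPM) were abundant in the control cells, while OLIG2 had no count in any of the 6 libraries and CHI3L1 reached at most 0.0934 CPM in a library. CPM are library-scaled counts with TMM factors. Normalised MSI1 expression was 16.0, 17.7 and 7.59 CPM in controls 1, 2 and 3 and 3.15, 5.11 and 2.26 CPM in knockdowns 1, 2 and 3. All knockdown values lay below all control values (log2 fold change −1.97, SE 0.42), yet edgeR's quasi-likelihood test missed the threshold of 0.05 (adjusted p = 0.0699). A model with replicate blocks gave an adjusted p of 0.00279. Control 3 stood apart from the other control libraries in many genes. Without it MSI1 had an adjusted p of 0.000404 and the count of changed genes in the whole table went from 232 to 1031. Several results are therefore given with and without control 3. MSI1 itself held no member. Its paralog MSI2, at 48.1 ± 6.81 CPM in control and 47.8 ± 1.14 CPM in knockdown cells (adjusted p = 0.989), held 2 members, 379 nt downstream of its exon 5 and 351 nt downstream of its exon 7 of 15.

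No stretch of sequence is shown, because no genome of the build used by the deposited files, hg18, was among the references. Positions are given on hg18, counted from 1. Lists 1, 2 and 3 held 1746795, 145718 and 208722 sites, so list 1 was by far the longest. Sites that meet the distance rule in a single list made up 6.23%, 6.15% and 5.60% of the lists (mean 5.99 ± 0.345, SD, n = 3). These shares differed little between lists of very unequal length.

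Few near-exon sites recurred between lists. Of the near-exon sites of lists 1, 2 and 3, 1.11%, 6.61% and 10.8% were present in another list. The corresponding shares were 1.27%, 7.76% and 12.4% for intronic sites farther than 500 nt from an exon, and 6.52%, 25.7% and 25.4% for sites in exons. The near-exon share was the lowest of the 3 in each list, by a small margin against deep intronic sites. Among members, 865 were in lists 1 and 3 only, 255 in lists 2 and 3 only, 200 in lists 1 and 2 only, and 138 in all 3. Exact positions mattered for these overlaps. When list 1 was shifted by 1 nt, the near-exon sites of list 3 that it matched went from 1003 to 253.5 (mean of both directions), and at 10 nt to 90. For lists 2 and 3 the same shifts gave 393, 265 and 30, and for lists 1 and 2 they gave 338, 226.5 and 62.5. The fall over the first nucleotide was thus steepest for the pair of lists that supplied most members.

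The authors' p-values were seldom low at the members. They were at most 0.05 for 75 of 1203 members in list 1 (6.23%), 38 of 593 in list 2 (6.41%) and 88 of 1258 in list 3 (7.00%), against 4.40%, 2.77% and 3.74% of all sites of those lists. A value of 1 was given to 44.0%, 25.5% and 29.8% of them. Only 14 members had a value of at most 0.05 in every list that held them. These were in SNHG3-RCC1 (2), BMPR1A (2), C17orf44 (2), ATP5A1, NCL, RPSA, PRKCSH, SHF, MAP3K15, YY1AP1 and NCRNA00188, listed after their values were seen. NCL encodes nucleolin and RPSA a protein of the small ribosomal subunit.

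Members were spread over both sides of the exon. Upstream of it, in the intron that precedes it, lay 687 members (47.1%), and downstream, in the intron that follows, 771 (52.9%). In the single lists the upstream share was 44.1%, 47.8% and 48.5% (mean 46.8 ± 2.39, SD, n = 3). The nearest exon was internal for 1307 members (89.6%), first for 91 (6.24%) and last for 60 (4.12%), where internal exons hold 90.1% and first and last exons 4.94% each of the exon edges that face an intron. The share at internal exons was thus close to that of the edges. The median distance was 247.5 nt, 257 nt upstream and 239 nt downstream. Within 100 nt of the exon were 101 upstream and 155 downstream members, so 39.5% were upstream. Within 20 nt there were 20 and 29, and within 10 nt 12 and 9. A single exon, exon 2 of C17orf44, gave 12 of the downstream members within 20 nt and 6 of those within 10 nt. Without that gene the counts were 101 and 143 within 100 nt, 20 and 17 within 20 nt, and 12 and 3 within 10 nt, so the order of the sides turned within 20 nt.

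Set against the amount of intron at each distance, members were sparse within 100 nt upstream of exons. Over the 6348 genes with a site in at least 2 lists, the density was 12.0, 13.7 and 12.0 sites per Mb of intron at 1 to 20, 21 to 50 and 51 to 100 nt upstream, where the branch point and polypyrimidine tract lie. It was 19.4 at 101 to 200 nt and between 21.6 and 24.1 from there to 500 nt. Downstream, beginning at the 5′ splice site, it was 17.3 at 1 to 20 nt (10.2 without C17orf44, the lowest of all bins), between 19.2 and 20.7 up to 200 nt, and 27.5 at 201 to 300 nt. Within 500 nt of exons the density was 21.0, and farther inside introns 29.7, a ratio of 0.707.

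**Figure D1:**
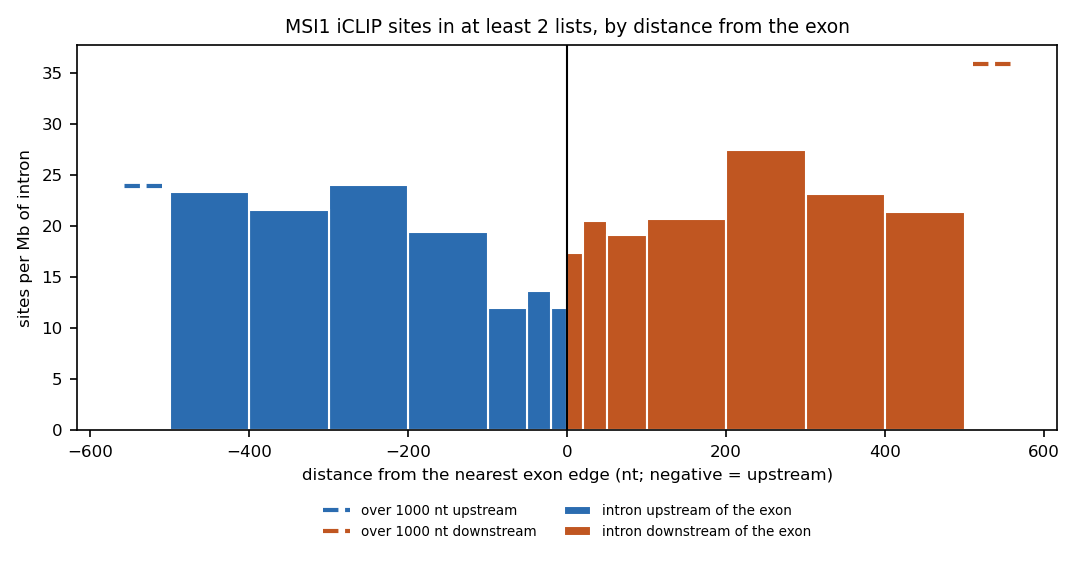
Density of intronic sites found in at least 2 iCLIP lists (vertical axis, sites per Mb of intron) by distance from the nearest exon edge (horizontal axis, nt, negative upstream), with dashed lines for sites over 1000 nt away. The lowest bars, 12.0 to 13.7, are the 3 bins within 100 nt upstream, the bar at 1 to 20 nt downstream falls from 17.3 to 10.2 without C17orf44, and the dashed lines stand at 24.0 upstream and 35.9 downstream.

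Over the introns of all genes, the lower density near exons held within each list. There the ratio of near to deep density was 0.548, 0.650 and 0.615 (mean 0.604 ± 0.0517, SD, n = 3). Over the introns of the 6348 genes with a site in at least 2 lists, the ratio depended on which lists supported a site. For the 138 members in all 3 lists the ratio was 1.01, and for the sites in both of lists 2 and 3 it was 1.01 as well, while without list 2 it was 0.701 and without list 3 it was 0.658. Over these genes, ratios below 1 were thus found for the pairs that include list 1. The choice of introns moves the ratio: members gave 0.507 over all genes and 0.707 over these. The ratio for sites in all 3 lists was not computed over all genes, so 1.01 cannot be set beside the ratios within each list. In the 3 bins within 100 nt upstream there were 9 sites in all 3 lists, with none in the first 20 nt, and in the matching downstream bins there were 23, of which 9 in the first 20 nt were all beside 1 exon of C17orf44.

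Members lay in introns of median length 2697.5 nt, against 1567 nt over all introns of the tables, and 18.6% of them were in introns of at most 1000 nt. Such introns hold 16.5% of the intronic nt within reach of an exon in genes with a site in at least 2 lists, and 20.5% over all genes, so the share of members was close to both. The exons beside them were of ordinary length (median 132 nt, against 135 nt). The limit of 500 nt cut a continuous run of distances: 128 sites lay at 451 to 500 nt and 135 at 501 to 550 nt. Among the sites just inside it were those of KARS (500 nt), LOC647121, SEPT6 and XRN2 (499 nt each), and just outside sites of CLIP4, MRPL30 and SLC25A24 (501 nt each).

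Most exons and genes held a single member, and a few held tight groups. There was 1 member at 1003 of 1153 exons and in 795 of 1007 host genes, while 20 exons and 28 genes held 5 or more, and 14 exons had members on both sides. Another member lay within 10 nt of 351 members (24.1%). Joining members within 10 nt left 1220 regions, of which 18 held 5 or more, so neighbouring sites are often not separate places.

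SNHG3-RCC1, a record that joins the small nucleolar RNA host gene SNHG3 to the regulator of chromosome condensation RCC1, held the most. Its 21 members lay upstream of exon 3 of 13 at chr1:28707655-28707827, 102 to 274 nt from the exon, in an intron of 669 nt, and 8 of them were in all 3 lists. The same intron and exon start belong to the SNHG3 record, so these sites belong to both. SNHG3 stood at 72.4 ± 12.3 CPM in control and 70.5 ± 2.46 CPM in knockdown cells (SD, n = 3, edgeR adjusted p = 0.951), and SNHG3-RCC1 at 2.95 ± 0.361 CPM in control cells. The exon was listed at 0 counts under SNHG3-RCC1 in each of the 6 RNA-seq libraries, and its share could not be tested. Such sharing was rare among the other members: 26 of 1458 lay in more than 1 gene on the same strand, these 21 included. C17orf44, an open reading frame record with 0.374 ± 0.194 CPM, held 12 members within 18 nt of the 5′ splice site of its exon 2 of 3 (chr17:8066318-8066335), 9 of them in all 3 lists. These are the members closest to a splice site among the exons with many sites.

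BMPR1A, the type 1A receptor of bone morphogenetic proteins and 1 of 2 genes with a member on a list of 19 Musashi targets from earlier literature (the other is PDGFRA), had 10 sites upstream of exon 4 of 13 at chr10:88639334-88639379, 420 to 465 nt away. Of these, 5 were in all 3 lists, with an authors' p as low as 4.53e-15 in list 1. NWD1 had 10 members in 11 nt upstream of its exon 8, at 1.28 ± 0.501 CPM, and 7 were in all 3 lists. SLC25A33, a mitochondrial nucleotide carrier, had 9 members in 10 nt, 419 to 428 nt upstream of exon 2, and 7 were in all 3 lists. SNX29, a sorting nexin, had 9 members upstream of exon 9 that were in lists 2 and 3 only.

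ATP5A1, the alpha subunit of mitochondrial ATP synthase at 269 ± 5.60 CPM, had 8 members 199 to 219 nt downstream of exon 6, and GTF2F1, a subunit of the general transcription factor TFIIF, had 8 at 424 to 433 nt downstream of exon 3. NEURL4 had 7, at 199 to 205 nt upstream of exon 22. HNRNPH1, an hnRNP that regulates splicing, was the exception among the 10 exons: its 8 members at exon 5 were split evenly between the sides and spread over 1017 nt.

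**Figure D2:**
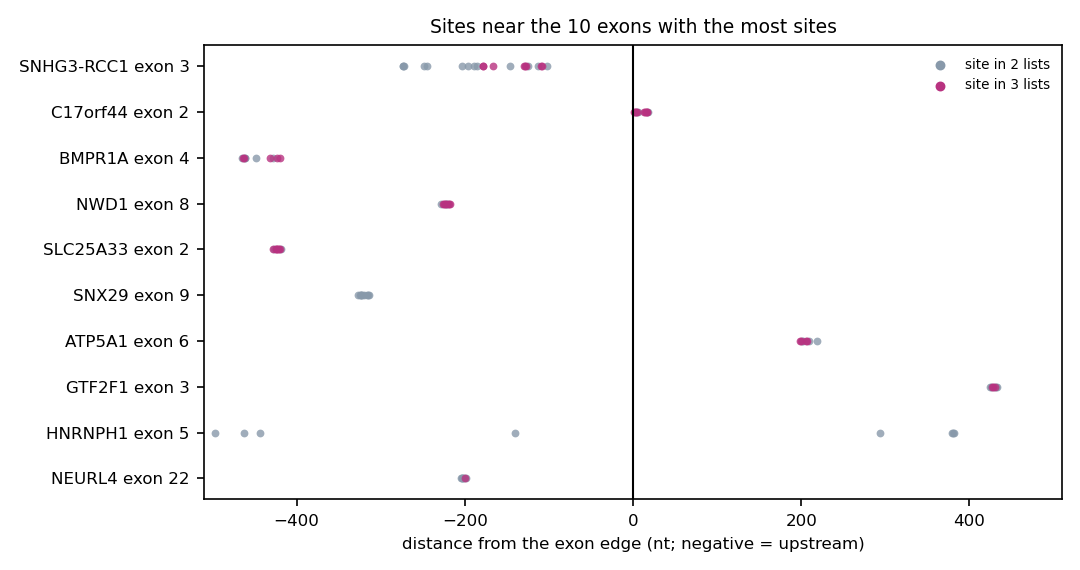
Members near the 10 exons with the most of them (horizontal axis, distance from the exon edge in nt, negative upstream, 1 point per site, coloured by the number of lists). In 8 of the exons the points form 1 narrow group of at most 46 nt on 1 side, while SNHG3-RCC1 exon 3 and HNRNPH1 exon 5 show a spread.

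Tight groups also stood in genes with almost no reads. FMO1, a flavin monooxygenase, had 5 members downstream of exon 8 and ITGB1BP3, a muscle integrin-binding kinase, 5 downstream of exon 5, although neither had a count in any library. Over the 3 control libraries a count of 0 allows up to 0.0253 CPM. CNGA1, a photoreceptor channel, had 6 members at 0.0415 CPM. Of the 20 exons with 5 or more members, 5 were in genes below 1 CPM in control cells, and 152 members (10.4%) were in such genes. Of all host genes 95 were below 1 CPM (9.43%), against 41.0% of all genes. Among the 87 genes with a member in all 3 lists, 18 were below 1 CPM in control cells. The median host gene stood at 67.5 CPM and was 62866 nt long, against 5.03 CPM and 20066 nt over all genes. In this material a gene's level and length moved with the presence of a member, and their part in it was not tested.

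By gene, HNRNPH1 followed SNHG3-RCC1 with 14 members at 4 exons. HSPA8, the constitutive heat shock cognate protein at 2606 ± 439 CPM, had 13, all downstream of its exons 5, 6 and 8. CD44, the hyaluronan receptor and a glioma marker, had 11 members at 8 of its 18 exons, 4 upstream and 7 downstream. Of those exons, 7 (exons 6 and 9 to 14) belong to the stretch of CD44 that is alternatively spliced. Their shares of the exon counts of CD44 in control cells ran from 0.0240% at exon 6 to 0.580% at exon 14, while exon 5 carried 9.20%. In the knockdown the same exons stood at 0.0175%, 0.540% and 9.69%, and none passed the test (adjusted p = 1.00 each, rounded). The exon 6 values were 0.0209%, 0.0211% and 0.0301% in controls and 0.0145%, 0.0184% and 0.0197% in knockdowns, from 26 to 45 reads per library. Those of exon 10 were 0.205%, 0.219% and 0.239% in controls and 0.157%, 0.185% and 0.183% in knockdowns, from 261 to 441 reads. Both exons were lower without overlap, as were 4.16% of all exons tested. At the other CD44 exons beside members the groups overlapped. CD44 as a gene stood at 3772 ± 144 and 3304 ± 217 CPM (adjusted p = 0.514).

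Splicing regulators were among the hosts. Of 61 hnRNP, SR and other splicing factor genes in the tables, 16 (26.2%) held 40 members, against 4.83% of all genes and 6.80% of the genes with enough counts to be tested. These genes are also abundant, and that part was not tested. None of the 61 changed at the gene level by edgeR's test. HNRNPA2B1, at 2102 ± 364 CPM, held 6 members at 4 exons. Of these, 3 lay upstream of exon 2, the 36-nt exon that distinguishes the B1 from the A2 protein, with the nearest 14 nt from it. That exon carried 0.473%, 0.467% and 0.190% of the exon counts in controls 1, 2 and 3 and 0.429%, 0.415% and 0.327% in the knockdowns, so control 3 stood below all others and the groups overlapped. Controls 1 and 2 lay above all knockdowns. MBNL2, a muscleblind splicing factor, and RBM39 held 3 members each.

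Integrin and focal adhesion genes held members in 9 of 62 cases, led by TNS3 (tensin 3) with 5 at 5 exons and by BCAR1 and DOCK1 with 2 each. Of the 58 tested, 2 rose (LPP and CAV2) and 2 fell (ITGB1 and PTK2) by edgeR's gene test, where 1.67% of all genes tested changed, and of these LPP alone was a host. Cadherin and junction genes held them in 7 of 52 cases, with NCAM1 at 2, and of the 46 tested CADM1, a host, fell. On the list of earlier Musashi targets, of 18 tested, TGFBR1 rose and SMAD3 fell, and neither is a host. The marker lists for neurons, leukocytes, endothelium and epithelium had no host gene. Summed over each list, control libraries held 4.42 to 7.71 CPM of leukocyte markers and 1036 to 1398 CPM of neuron markers, and knockdown libraries 4.55 to 6.56 and 1123 to 1428 CPM. Of the 7 neuron markers in the tables, STMN2, SLC17A7 and SYP were below 1 CPM in every library, so the neuron sums came from the others. Endothelial markers summed to 13.6 to 14.8 CPM in control and 22.1 to 25.7 CPM in knockdown libraries, and epithelial markers to 8.93 to 26.2 and 25.3 to 41.3 CPM. Below 1 CPM in every library were the endothelial PECAM1, VWF, CDH5, TEK, CLDN5 and TIE1, so the endothelial sums came mostly from KDR. Of the epithelial markers, EPCAM, KRT5, KRT14, KRT20 and CDH1 were below 1 CPM in every library, and the others on that list were not. No gene of either list was called.

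Some host genes carry small nucleolar RNA (snoRNA) genes, which guide modification of other RNAs and are processed out of introns. In GENCODE release 29, matched by symbol and used at the gene level only, 37 of 900 matched host genes (4.11%) had a snoRNA gene inside them on the same strand, against 2.49% of matched genes with deep intronic sites and no member and 1.90% of matched genes tested for expression. The median lengths of these 3 sets were 63273, 90194 and 30558 nt. For host genes with at least 3 members it was 11 of 81 (13.6%), and for those with a member in all 3 lists 16 of 71 (22.5%). Examples are HSPA8 with SNORD14C, SNORD14D and SNORD14E, EIF4A2 (4 members), RPS12 (4), RPL27A (4), RPS13 (4), SNHG12 (4), RPSA (3) and NCL (1). The snoRNA genes of HSPA8, RPL27A and RPS13 are not in the deposited exon tables, so a site on such an RNA counts as intronic there. Those of RPS12, SNHG12, RPSA and NCL, and 4 of the 5 in EIF4A2, are in those tables. A site on them counts as exonic, so it cannot be a member. How many members lie on snoRNAs absent from the tables could not be read without annotation on hg18.

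The exons beside the members were then compared between control and knockdown cells. edgeR's diffSpliceDGE asks whether 1 exon behaves unlike the rest of its gene, and the share of an exon is the percent of its gene's counts, over tested exons, that fell on it. Of 1153 exons beside members, 941 passed the filter on low counts. None of them changed at an adjusted p below 0.05, as none did among the 123109 exons tested (0%). At an unadjusted p below 0.05 there were 2 of 941 (0.213%), against 0.214% of all exons. In this fit the count among members was therefore at the level of the whole table. Far fewer exons of the whole table fell below 0.05 than evenly spread p-values would give. The fit was thus cautious, and so low a level could hardly show whether exons beside members differ. With the replicate block 0 members were called (0.00812% of all exons were) and 25 had an unadjusted p below 0.05 (2.66%, against 1.97% of all exons). With limma's diffSplice 0 were called (2 of all 123109 exons), and with DESeq2 1 of 941, exon 16 of NRP2, against 16 of all 123109 exons (0.0130%). At an unadjusted p below 0.05 there were 9 of 941, against 1030 of all 123109, with limma's diffSplice, and 11 against 776 with DESeq2. In diffSpliceDGE without control 3 there were 9 of 941, against 635 of all 123109. These differences were not tested.

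Exons with a member upstream had a median log2 change of −0.0023 (427 tested, middle 50% of values from −0.08 to 0.10), and exons with a member downstream 0.02 (525 tested, −0.09 to 0.15), with 0.0005 over all exons tested. Without control 3 the downstream median turned to −0.02. Groups did not overlap for 13 upstream exons that were higher in every knockdown library (3.04%) and 15 that were lower (3.51%), where all exons gave 3.51% and 4.16%. For downstream exons 16 were higher (3.05%) and 33 lower (6.29%). The downstream share of lower exons was above that of all exons although their median was positive. Without control 3, the downstream counts were 31 higher (5.90%) and 62 lower (11.8%), against 7.75% and 10.2% of all exons, and the upstream ones 38 (8.90%) and 40 (9.37%). Neither excess was tested, since members share genes and neighbouring sites.

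**Figure D3:**
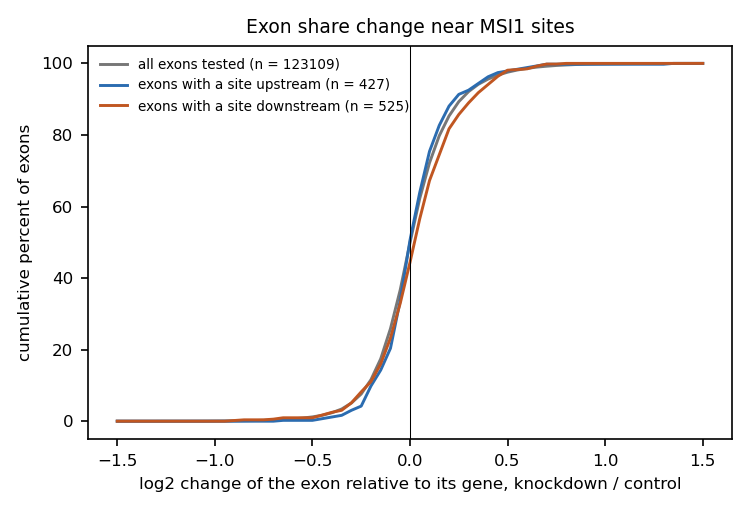
Cumulative percent of exons (vertical axis) by log2 change of the exon relative to its gene in knockdown over control libraries (horizontal axis), for all 123109 tested exons, the 427 with a member upstream and the 525 with a member downstream. The 3 curves nearly coincide and cross the middle close to 0, with medians of 0.0005, −0.0023 and 0.02.

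In narrower sets no exon had an unadjusted p below 0.05 by diffSpliceDGE. Over all exons 0.214% did, too few to set apart from none in sets of this size. Of exons with a member within 100 nt upstream, 72 were tested, with a median of 0.01, 0 exons higher and 1 lower without overlap (1.39%). Within 100 nt downstream, 99 were tested, with a median of 0.01, 4 higher (4.04%) and 6 lower (6.06%), where all exons gave 3.51% and 4.16%. Of 89 exons beside members in all 3 lists, 55 were tested, with a median of −0.02, 1 higher (1.82%) and 4 lower (7.27%). The exons with tight groups did not pass the test either. Exon 4 of BMPR1A carried 6.63%, 6.03% and 7.68% of its counts in controls and 6.57%, 6.57% and 6.67% in knockdowns. Exon 6 of ATP5A1 stood at 10.6 ± 0.188% and 10.8 ± 0.687%, and exon 2 of SLC25A33 at 10.6 ± 0.562% and 9.23 ± 0.958%.

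A log2 change over 1 in either direction was seen at 1 of 941 exons (0.106%), against 0.18% of all exons, and the 1 was a rise, as in 161 of all exons (0.131%). It was exon 10 of PTBP2, the neuronal polypyrimidine tract-binding protein, whose alternative 34-nt exon has a site 350 nt upstream. It carried 0.425%, 0.366% and 0.139% of the counts in controls and 1.00%, 0.651% and 0.585% in knockdowns, which did not overlap. This rests on 3 to 8 reads per control library and 10 to 17 per knockdown library (log2 change 1.35, unadjusted p = 0.0202, adjusted p = 1.00 by diffSpliceDGE). Without control 3 the log2 change was 0.87 with an unadjusted p of 0.102.

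Exon 16 of NRP2, which encodes neuropilin-2, a receptor of semaphorins and vascular endothelial growth factors, had the lowest unadjusted p of the exons beside members. The exon is 911 nt long and has a site in 2 lists 440 nt downstream. Its share was 7.07%, 8.14% and 6.36% in controls and 10.4%, 12.3% and 12.3% in knockdowns, from 388 to 1181 reads. All knockdown libraries lay above all controls (log2 change 0.69, unadjusted p = 0.0191 by diffSpliceDGE, adjusted p = 1.00), and DESeq2 gave an adjusted p of 0.0159.

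Other exons were lower in the knockdown without reaching the threshold. Exon 5 of DNM3, a dynamin of membrane fission, has a site 26 nt downstream and carried 2.44%, 2.17% and 1.84% in controls and 1.24%, 0.861% and 1.31% in knockdowns (log2 change −0.92, unadjusted p = 0.0595). Exon 3 of IP6K2, an inositol hexakisphosphate kinase, has a site 30 nt downstream and went from 1.55%, 1.92% and 1.47% to 0.967%, 1.13% and 0.637% (log2 change −0.86, unadjusted p = 0.0624). In both, the groups were apart, on 14 to 28 and 13 to 43 reads per library. With a site upstream, exon 6 of MYO5A, a myosin motor, stood at 2.03 ± 0.279% and 1.45 ± 0.202%, and the 23-nt exon 22 of TBCD, a tubulin folding cofactor, at 0.219 ± 0.0253% and 0.131 ± 0.0346%. Their unadjusted p-values were 0.170 and 0.288. Without control 3 the unadjusted p-values of diffSpliceDGE were 0.0137 for DNM3, 0.0152 for IP6K2, 0.129 for MYO5A and 0.275 for TBCD.

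Higher shares were found at exon 4 of RTN4, the neurite growth inhibitor Nogo, whose 2400-nt exon has a site 329 nt upstream, with 0.445%, 0.596% and 0.617% in controls and 0.647%, 0.991% and 0.969% in knockdowns. Exon 4 of SLC25A36, a mitochondrial pyrimidine carrier, with a site 357 nt downstream, stood at 1.82 ± 0.520% and 2.69 ± 0.304%. Leaving out control 3 moved the unadjusted p of diffSpliceDGE from 0.134 to 0.00940 for RTN4 and from 0.111 to 0.251 for SLC25A36. The other 16 exons named by the rule had unadjusted p-values between 0.147 and 0.553, and between 0.0198 and 0.552 without control 3. No exon beside a member reached an adjusted p below 0.05 in that fit.

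**Figure D4:**
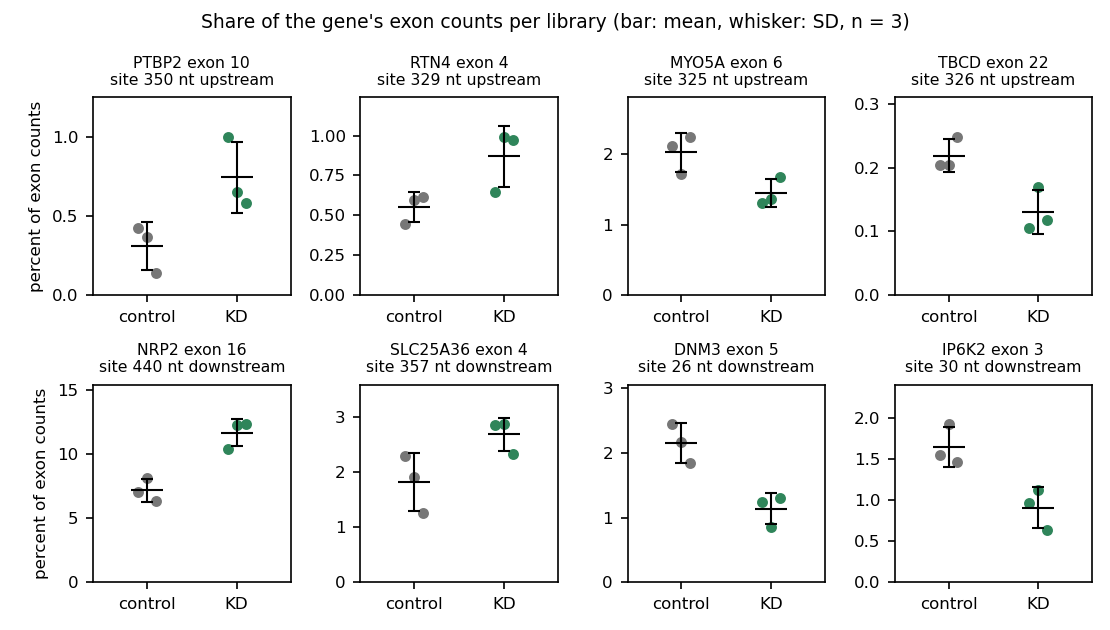
Share of the gene's exon counts (vertical axes, percent, from 0, own scale per panel) in each control and knockdown library for 8 exons beside members, with mean and SD (n = 3). The groups do not overlap in any panel because the exons were chosen for this, and none passed the adjusted test of diffSpliceDGE.

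At the gene level, 942 of 1007 host genes were tested and 17 (1.80%) passed the gene test of edgeR in the knockdown, with 8 higher and 9 lower, where 1.67% of all genes tested changed (0.772% higher, 0.902% lower). Genes with deep intronic sites and no member changed in 86 of 3346 cases (2.57%). The median log2 fold change of host genes was −0.09, against −0.04 for all genes. The share changed among host genes was thus near that of all genes. With the replicate block 198 host genes were called, 60 higher and 138 lower (21.0%), against 17.3% of all genes, and they included each of the 17. All genes were not split by direction under the block, so the split of 60 and 138 has no background beside it. Without control 3, 88 were called (9.34%, against 7.44% of all genes). With any other library left out between 0 and 3 host genes were called (at most 0.318%). In those fits between 0 and 10 of all 13856 genes tested were called (at most 0.0722%).

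ACLY, ATP citrate lyase, which makes the acetyl-CoA for fatty acid synthesis, rose from 94.0, 88.1 and 59.9 CPM to 586, 634 and 509 CPM (log2 fold change 2.84, SE 0.21, adjusted p = 0.00485). LPP, which has LIM domains and sits at focal adhesions, rose from 73.7 ± 8.87 to 323 ± 25.0 CPM (log2 2.13, adjusted p = 0.00478). ITPR1, the type 1 inositol trisphosphate receptor of the endoplasmic reticulum, went from 10.8 ± 0.948 to 36.0 ± 2.95 CPM, and CGNL1, a junction protein, from 19.0 ± 3.25 to 46.8 ± 6.01 CPM. CDK2AP1, an inhibitor of CDK2, and SLCO5A1 also rose. Each of the 8 held 1 member, and in each the control and knockdown libraries did not overlap.

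MED1, a subunit of the Mediator complex, held 3 members on neighbouring nucleotides, 340 to 342 nt downstream of exon 16 of 17, and fell most, from 242, 240 and 304 CPM to 92.8, 78.6 and 105 CPM (log2 fold change −1.51, SE 0.17, adjusted p = 0.0132). R3HDM1 (2 members) fell from 194 ± 34.6 to 87.2 ± 6.92 CPM and RRP1B (2 members), a nucleolar protein, from 95.7 ± 9.92 to 40.8 ± 4.74 CPM. CADM1, a cell adhesion molecule with a member upstream, fell from 361 ± 48.6 to 181 ± 23.8 CPM (adjusted p = 0.0340). The remaining fallers were CTDSP2, FAM120A, MEAF6, NFIA and RILPL2, with log2 changes between −0.97 and −1.40. Of the genes with the most members, none was called in either direction. Host genes with at least 3 members were called in 1 of 82 cases, MED1, and those with a member in all 3 lists in 0 of 71 cases by edgeR's test, both too few genes to set apart from the 1.67% of all genes.

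**Figure D5:**
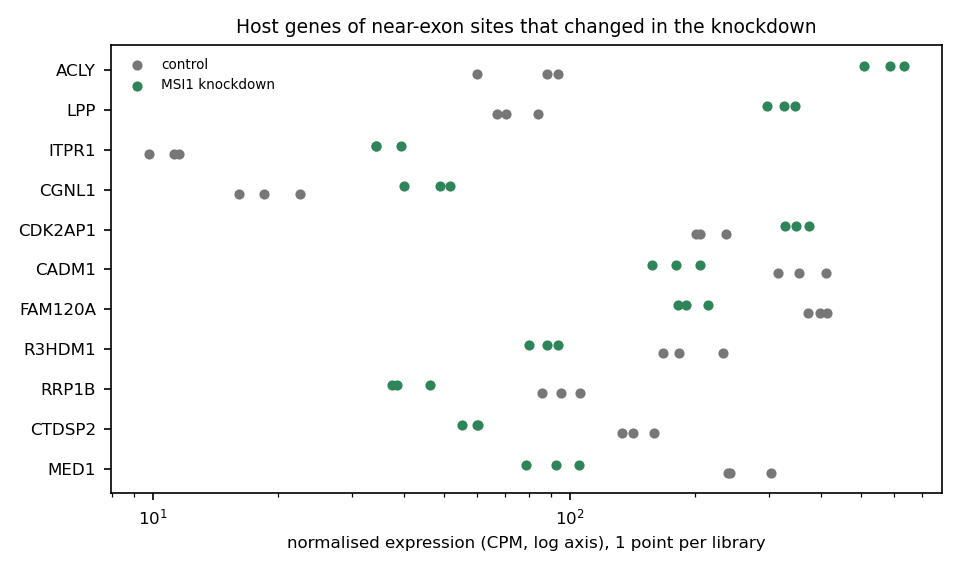
Normalised expression (CPM, log axis) of 11 host genes called changed with at least 10 CPM in control cells, 5 higher and 6 lower, with 1 point per library in 3 control and 3 knockdown libraries. The control and knockdown points do not overlap in any gene, from ITPR1 near 10.8 CPM in control cells to FAM120A near 395 CPM.

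Host genes shared other sites in part. A site in an exon in at least 2 lists was present in 326 of the 1007 (32.4%), which is 11.7% of the 2782 genes with such a site. A deep intronic site in at least 2 lists was present in 542 (53.8%), which is 12.6% of the 4288 genes with one. Of the host genes that also held an exonic site, 5 of 325 tested changed (1.54%), and of those with a deep site 8 of 534 (1.50%), both near the 1.67% of all genes.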

How the data were processed

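RNA-seq was analysed in 3 control and 3 knockdown libraries and iCLIP in 3 libraries, grouped by sample titles. The deposited tables hold unnormalised read counts per gene and per exon, made by the authors, and, for iCLIP, lists of single-nucleotide sites with a p-value each. These p-values, given by the authors in the deposited lists, reach 1 and were used only as descriptions or to limit sites. Coordinates are on hg18, as the submitters' processing notes name it. Not given in the sources used here are the aligner, the counter with its strand setting and the site caller, so reads of overlapping genes on opposite strands cannot be told apart. Gene sums were 32919299 to 47277016 counts per library and exon sums 41850423 to 60776151, and within each group every 2 libraries differed by more than counting noise (chi-square of at least 22.7 per gene).

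Sites were placed in introns with the intervals of the deposited tables (Python 3.11.15, pandas 2.3.3). A site in several genes went to the gene with the nearest exon edge (on a tie, the gene with the lower start), and distance 1 is the first intronic nucleotide. Counts were tested with edgeR 4.0.16 in R 4.3.3 (TMM, filterByExpr, quasi-likelihood tests, diffSpliceDGE for exons in genes with at least 2 tested exons), with Benjamini-Hochberg adjustment over the whole table, a threshold of 0.05 and the group as the only term (4 residual degrees of freedom). Coefficients of diffSpliceDGE, which are natural logarithms, were converted to log2. limma 3.58.1, DESeq2 1.42.0, other scaling, no filter, other distance limits and leaving out each library were alternatives. The tests and the placing of sites were tried on simulated data.

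Members, gene lists and tests were chosen with earlier results of these data known. Named are MSI1, MSI2, the 10 exons and 10 genes with the most members, up to 6 exons per side and direction with groups apart and the lowest unadjusted p, up to 6 called host genes per direction by number of members, up to 4 genes per list and the sites next to the limit. Others were chosen after their values were seen: the 14 sites with low p-values, FMO1, ITGB1BP3, CNGA1, SLCO5A1, NFIA, RILPL2, SNHG3, the exons of CD44, HNRNPA2B1, HSPA8 and MSI2, and the snoRNA hosts. Of the called host genes 2 are not reported here by name.

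To see whether replicate numbers pair the samples, each library's departure from its group mean was correlated between groups. Libraries of equal number gave 0.318, 0.732 and 0.751, each over 0.1, and were treated as pairs in the blocked model, although control 1 was closer to knockdown 2 (0.494).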

Additional observations from a re-analysis of the deposited data

How the results depend on the processing

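The number of members follows from the rule. It was 138 with all 3 lists required, 338 to 1003 with 1 list left out, 256, 551 and 2820 with limits of 100, 200 and 1000 nt, and 22 with an authors' p of at most 0.05 in at least 2 lists. The upstream share was 51.4%, 46.3% to 50.0%, 39.5%, 44.3% and 50.0% under the same changes, leaving out the limit of 1000 nt, where it moved by less than the spread between lists. The ratio of near to deep density was 1.01 for all 3 lists, 0.507 over all genes with introns and 0.658 to 1.01 with 1 list left out, an alternative chosen after seeing the data, as was leaving out C17orf44 (0.701). The cause was not tested. The count of exons called beside members was 0 under every alternative but DESeq2 (1), and the medians stayed between −0.02 and 0.01 upstream and −0.02 and 0.06 downstream. The count of host genes called was 48 with DESeq2 (5.07%, against 5.05% of all genes) and 0 when only members in all 3 lists counted (71 genes tested). With 1 RNA-seq library left out, the count of host genes was lowest without knockdown 1 (0, as over all genes). It was highest without control 3 (88, or 9.34%, against 7.44% of all genes). With the replicate block, which pairs the libraries and leaves 2 residual degrees of freedom, it was 198, the 17 called host genes were called too and no exon beside a member was. Over 13 gene results, MSI1 included, 53 of 130 alternative values lost the threshold with the same direction, all but 1 of them with a library left out; the exception was CADM1 with DESeq2 size factors (adjusted p = 0.0532). Of 264 alternative values of the 24 named exons, 263 were counted as keeping their side of the threshold. Some DESeq2 values among them, such as those of PTBP2, DNM3 and IP6K2, had no adjusted p. No direction reversed among named exons and genes. The exons were chosen for groups apart, and the genes other than MSI1 for being called. Such directions could hardly reverse, so these counts say little about whether the changes would recur. Exons with few reads, such as those of PTBP2, DNM3 and IP6K2, limit what a change in share could show.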
